A study of Mus musculus with 2 samples.

Results

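Lyz1 and Lyz2 are the 2 classical lysozyme genes of the mouse, and both were measured as single rows among the 27998 genes of a single-cell RNA-Seq study of Lewis lung carcinoma (LLC) tumors. The pair was chosen by its measured values in these libraries, so every difference between libraries given here for Lyz1 or Lyz2 is a description and was not tested. LLC cells derive from a lung tumor of the C57BL strain, and the mice here were C57BL/6. Tumors had grown subcutaneously for 14 days in mice that were 8 weeks old at implantation and are labelled as 10 weeks old, and CD45+ cells, the leukocytes, were sorted from them. Cells of 3 mice were pooled for each genotype and gave 1 droplet library each (10x Genomics 3′ chemistry). All mice carried loxP-flanked miR-21 (miR-21flox/flox), and the conditional knockouts carried LysMCre as well. LysMCre is a knock-in of Cre recombinase at Lyz2 itself (Lyz2tm1(cre)Ifo), so the allele that deletes miR-21 in cells expressing lysozyme M also alters a member of the pair. How many copies of it the mice carried was not given in the sources used here. The titles of the libraries are wt and cko, whereas the descriptions of the cell source name the conditional knockout for the library titled wt. The growth protocol names a gate for CD11b+, MHCII+ and F4/80+ macrophages where the design text names CD45+ cells. Both libraries are therefore called by their titles, wt and cko, throughout, and cko minus wt is a difference between labels. The loss of miR-21, the LysMCre allele, the pool of mice and the library cannot be told apart in this design.

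Lysozyme cleaves the peptidoglycan of bacterial cell walls. Monocytes, macrophages and granulocytes secrete it in large amounts, and Lyz2 (lysozyme M) is the gene known for this in mouse myeloid cells. Lyz1 (lysozyme P) is best known from Paneth cells, the antimicrobial secretory cells of the small intestine. Dendritic cells and lymphocytes are known to express little lysozyme.

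The 2 genes lie next to each other on the minus strand of chromosome 10. In the GENCODE M21 annotation of GRCm38, Lyz2 (ENSMUSG00000069516) spans 117277331 to 117282321 and Lyz1 (ENSMUSG00000069515) spans 117287797 to 117292868, with 5475 bases between them. Each has 4 exons and a coding sequence of 447 bases, which is 148 codons before the stop. The files use mm10, the same assembly. Of the 447 coding bases 425 (95.1%) are the same. The last 300 coding bases of the GENCODE transcripts, up to and including the stop codon, are shown because their likeness bears on how reads of the genes can be told apart, and capitals mark the 8 bases at which they differ.
Lyz1 coding sequence, last 300 bases: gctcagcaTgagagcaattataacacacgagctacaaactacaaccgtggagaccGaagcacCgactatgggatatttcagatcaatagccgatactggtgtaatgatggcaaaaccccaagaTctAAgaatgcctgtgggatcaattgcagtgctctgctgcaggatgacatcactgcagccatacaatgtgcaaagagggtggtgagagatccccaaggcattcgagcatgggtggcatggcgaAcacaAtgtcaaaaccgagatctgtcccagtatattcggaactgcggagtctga
Lyz2 coding sequence, last 300 bases: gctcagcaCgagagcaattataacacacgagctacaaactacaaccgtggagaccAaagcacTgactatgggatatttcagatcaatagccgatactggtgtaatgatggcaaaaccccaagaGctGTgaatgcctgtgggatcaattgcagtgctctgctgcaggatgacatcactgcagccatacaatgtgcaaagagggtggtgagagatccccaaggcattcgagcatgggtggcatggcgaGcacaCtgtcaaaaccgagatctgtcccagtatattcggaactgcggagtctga
The stretch after the stop codon, where 3′ chemistry places most reads, was 95.6% identical over 791 alignment columns. Of the 408 aligned windows of 98 bases, the length of the cDNA read, in the last 500 bases of the transcripts, 7 were identical in both genes, 69 differed at 1 base and 332 differed at 2 or more bases. Most such windows tell the genes apart by at least 2 bases, but not all do. How reads that match both genes were counted is not given in the sources used here, and low Lyz1 counts beside very high Lyz2 counts are uncertain for that reason.

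The promoters differ more than the coding sequences. Each window below runs from 250 bases before to 50 bases after the RefSeq start of the gene (GRCm38.p6, minus strand), at chr10:117292819-117293118 for Lyz1 and chr10:117282223-117282522 for Lyz2. Capitals mark bases that differ from the other gene or have no partner in it, and 249 of 302 alignment columns (82.5%) were identical.
Lyz1 promoter: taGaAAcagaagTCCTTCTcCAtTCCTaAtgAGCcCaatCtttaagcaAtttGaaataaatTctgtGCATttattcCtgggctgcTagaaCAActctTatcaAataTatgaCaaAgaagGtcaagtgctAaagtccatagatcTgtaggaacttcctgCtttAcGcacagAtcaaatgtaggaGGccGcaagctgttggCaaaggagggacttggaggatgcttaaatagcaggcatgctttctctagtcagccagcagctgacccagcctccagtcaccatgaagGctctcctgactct
Lyz2 promoter: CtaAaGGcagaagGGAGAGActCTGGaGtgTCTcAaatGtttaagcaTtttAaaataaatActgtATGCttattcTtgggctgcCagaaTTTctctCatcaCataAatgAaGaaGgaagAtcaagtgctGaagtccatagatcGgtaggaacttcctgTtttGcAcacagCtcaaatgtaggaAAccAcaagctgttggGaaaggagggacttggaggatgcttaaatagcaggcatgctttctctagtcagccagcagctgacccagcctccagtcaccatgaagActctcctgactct
GGAA, the core that ETS factors such as PU.1 bind, was found on either strand 4 times in the Lyz1 window and 5 times in the Lyz2 window. It was present in 96.0% of the 32851 promoter windows of this length, with a median of 3 matches. The longer GAGGAA, which contains GGAA, was in neither window and in 28.3% of all windows. TTGCNNAA, the C/EBP motif with its middle bases left free, was found 1 time on the opposite strand of the Lyz1 window, not in the Lyz2 window, and in 10.8% of all windows. TATAAA was in neither window and in 13.6% of all windows. These matches describe letters only.

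In wt there were 2449 cells with 24492486 UMIs (unique molecular identifiers, 1 for each captured RNA molecule) and in cko 2718 cells with 27163485 UMIs. After filters, 2397 and 2645 cells were kept, with median depths of 8337 and 8228 UMIs. Marker UMIs placed 2050 (85.5%) and 2259 (85.4%) of them into 12 myeloid states, and Lyz1 and Lyz2 were part of no gate. The states were 4 of monocytes, 4 of cells with the complement genes C1qa, C1qb and C1qc that mark macrophages, 1 of neutrophil-like cells and 3 of dendritic cells. T cells (145 and 181) and NK cells (53 and 45) served as cells that should lack lysozyme. Markers outside the gates were checked for T cells, NK cells, neutrophil-like cells, nonclassical monocytes and Xcr1 dendritic cells only. Cd8a was at 475 and 646 CPM (UMIs of the gene per 1000000 UMIs of the cells) in T cells against 1.79 and 1.28 CPM in the other gated cells, and Il1r2, a decoy receptor of neutrophils, was at 1149 and 1164 CPM in neutrophil-like cells against 295 and 335 CPM elsewhere. Pou2f2 differed less, at 214 and 270 CPM in nonclassical monocytes against 115 and 145 CPM. Only 5 barcodes occurred in both libraries. With 1 library per genotype there is no replicate check, and every interval given covers counting error only.

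Lyz2 was the most abundant gene of the gated myeloid cells labelled wt and ranked 6 in those labelled cko. It held 1.91% of all their UMIs in wt and 0.903% in cko, which is 396117 and 201470 UMIs or 19119 and 9034 CPM. As a log2 ratio of cko to wt, this was −1.08 (95% interval −1.09 to −1.07). Lyz1 went the other way, with 853 UMIs (41.2 CPM) in wt and 4446 UMIs (199 CPM) in cko, a log2 ratio of 2.28 (interval 2.17 to 2.38). Of the 9669 genes with at least 100 UMIs in these cells, 0.548% were lower in cko by 1.5-fold or more and 2.17% were higher by that much. Lyz2 ranked 14 from the lowest ratio and Lyz1 ranked 8 from the highest. Among the 21 genes with the most UMIs, only Lyz2 was past 1.5-fold, and the median log2 ratio of all genes was 0.03.

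**Figure D1:**
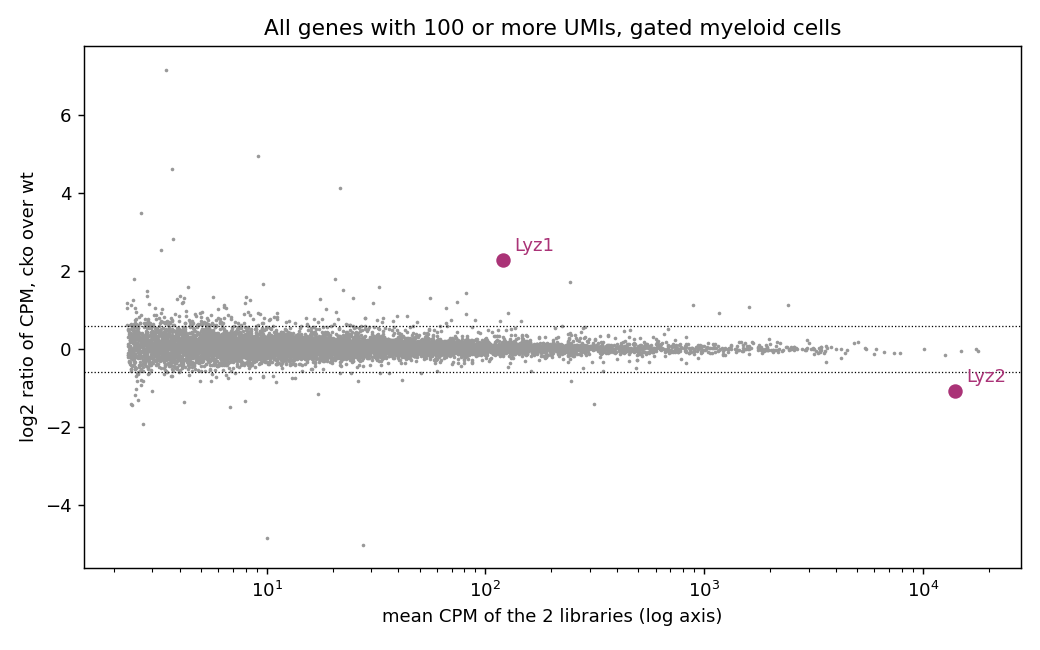
Each grey point is a gene with at least 100 UMIs in gated myeloid cells, with its mean CPM in the 2 libraries on a log axis and its log2 ratio, cko over wt, on the vertical axis. Dotted lines mark 1.5-fold. Lyz2 lies alone below the lower line at the abundant end (−1.08), and Lyz1 lies above the upper line (2.28). Trim5, with no UMI in cko, is not drawn.

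Lyz2 was lower in cko in all 4 monocyte states. In interferon-low classical monocytes, blood-derived Ly6c2+ cells, it was at 26190 CPM in wt and 13863 CPM in cko, a log2 ratio of −0.92 (interval −0.93 to −0.90), where 1.15% of tested genes were lower by 1.5-fold or more. These cells had the highest Lyz2 level of the 12 states in both libraries. In interferon-high classical monocytes, set apart by the interferon response genes Ifit1, Rsad2 and others, it was at 18963 and 12092 CPM (−0.65, interval −0.69 to −0.61, 2.09% of genes lower). That was the smallest fold among the 8 monocyte and C1q states. In Ly6c2-low monocytes it was at 24812 and 11199 CPM (−1.15, interval −1.17 to −1.13, 0.768% of genes lower). In nonclassical monocytes, the patrolling form with Ace and Treml4, it was at 20121 and 10488 CPM (−0.94, interval −0.97 to −0.91, 1.25% of genes lower).

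The C1q states had less Lyz2 than the monocytes and showed the same direction. Together they were at 16201 CPM in wt and 7429 CPM in cko, against 23937 and 12127 CPM in the monocyte states. Cells with both C1q genes and Ly6c2, a monocyte marker, were at 18146 and 10782 CPM (log2 ratio −0.75, interval −0.78 to −0.72), where 1.26% of genes were lower by 1.5-fold or more. Macrophages with Vcam1, Ccl8 or Folr2 (at least 6 UMIs of these genes summed) were at 16380 and 7974 CPM (−1.04, interval −1.06 to −1.02, 0.89% of genes lower). Macrophages with Cd300e, Clec4b1 or Pparg (at least 4 UMIs summed) had the lowest Lyz2 of the C1q states in both libraries, 11244 and 4804 CPM (−1.23, interval −1.25 to −1.20, 0.735% of genes lower). They were also the state with the largest difference in cells, 143 in wt and 281 in cko. The other C1q macrophages were at 18513 and 8750 CPM (−1.08, interval −1.10 to −1.06, 0.786% of genes lower). With the same mix of the monocyte and C1q states given to both libraries, the log2 ratio of Lyz2 was −1.01.

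In the neutrophil-like cells Lyz2 was at 14258 CPM in wt and 5294 CPM in cko (−1.43, interval −1.51 to −1.35). Here 9.33% of genes were lower by 1.5-fold or more, and Lyz2 ranked 5 from the lowest ratio of 793 genes tested. There were 38 and 73 of these cells, whose median depths of 4443 and 4083 UMIs were the lowest of the states. Mgl2/Flt3 dendritic cells, which take up and present antigen, were at 6027 and 1777 CPM (−1.76, interval −1.87 to −1.66, 3.09% of genes lower). A single cell held 36.7% of the Lyz2 UMIs in wt and another 30.5% in cko, and without them the log2 ratio was −1.63 (interval −1.76 to −1.50). Xcr1 dendritic cells, which present antigen to CD8 T cells, were at 1240 and 579 CPM (−1.10, interval −1.47 to −0.75, 4.57% of genes lower) from 16 and 7 cells, and the ratio turned to 0.51 with high doublet scores kept. Mature Ccr7 dendritic cells, on their way to lymph nodes, had 46 and 153 UMIs, or 441 and 647 CPM, and a log2 ratio of 0.55 (interval 0.07 to 1.06), where 10.7% of genes were higher and 6.2% lower by 1.5-fold or more. A single cko cell held 98 of those 153 UMIs, and without the top cell of each library the ratio was −0.86 (interval −1.47 to −0.23).

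The order of the Lyz2 levels was much the same in both libraries. In wt it ran from interferon-low classical monocytes through Ly6c2-low, nonclassical and interferon-high monocytes to the C1q states and neutrophil-like cells, with Cd300e/Clec4b1/Pparg macrophages and the dendritic cells last. The intervals of interferon-high monocytes (18643 to 19287 CPM) and other C1q macrophages (18362 to 18665 CPM) overlapped at their ends. Overlap of intervals does not show that levels are the same. In cko interferon-high monocytes moved up to the second place. There the intervals of Ly6c2+ C1q cells (10603 to 10963 CPM) and nonclassical monocytes (10324 to 10654 CPM) overlapped at their ends. Those of mature Ccr7 (549 to 758 CPM) and Xcr1 dendritic cells (458 to 722 CPM) overlapped as well.

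**Figure D2:**
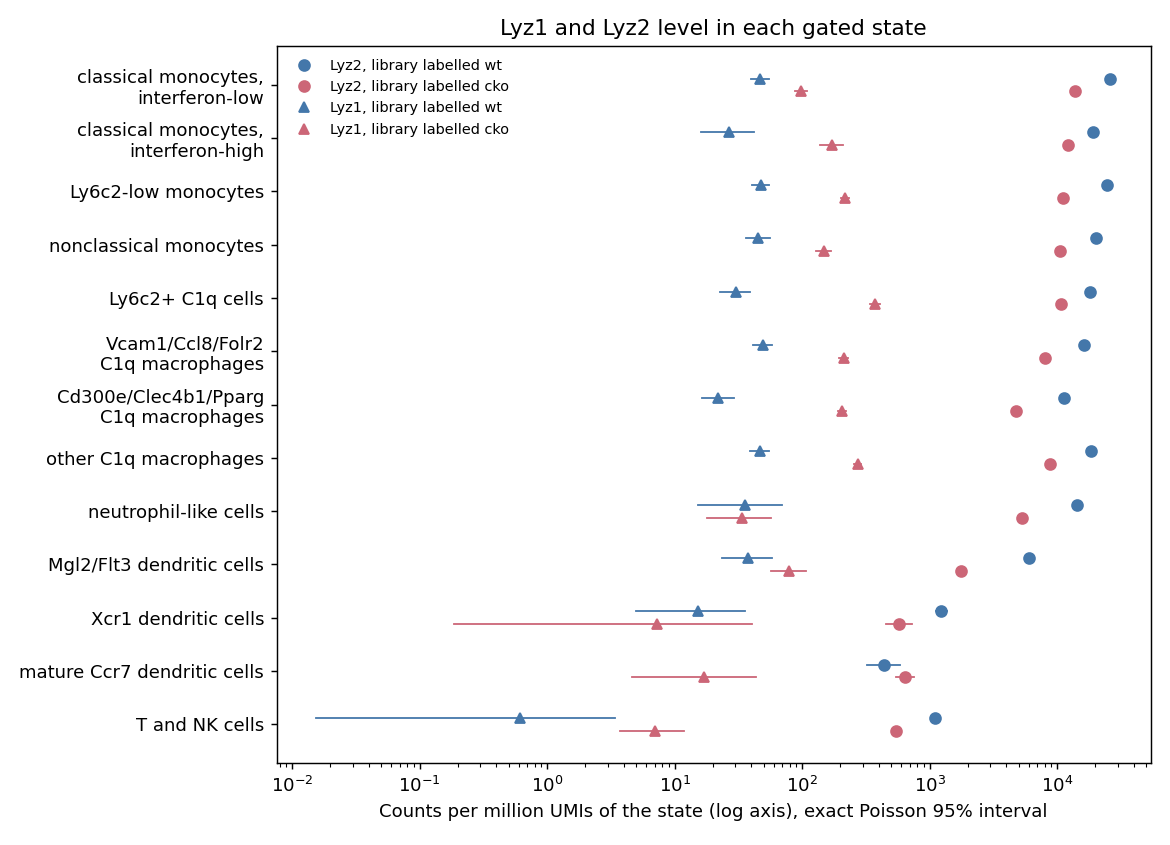
Summed CPM of Lyz2 (circles) and Lyz1 (triangles) in each gated state, on a log axis, with exact Poisson 95% intervals for counting error. Lyz2 of the library labelled cko lies to the left of wt in every state but the mature Ccr7 dendritic cells, whereas Lyz1 of cko lies to the right of wt in all 8 monocyte and C1q states. States with no UMI have no point.

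The difference in Lyz2 was seen at every percentile of the cells that was computed. Per 10000 UMIs of the cell, gated myeloid cells had a median of 192 Lyz2 UMIs in wt and 86.1 in cko, with 10th percentiles of 43.8 and 10.9 and 90th percentiles of 372 and 186. The ratio of cko to wt was 0.249 at the 10th percentile, 0.407 at the 25th, 0.448 at the median, 0.477 at the 75th and 0.499 at the 90th. In the pooled cells the ratio was thus lower at the lower end of the range. The pooled ratio also holds the different mix of states, as with 143 Cd300e/Clec4b1/Pparg macrophages in wt and 281 in cko. Single states did not all follow this order. Only 9.16% of cko cells lay above the median of wt, and 18.4% of wt cells lay below the median of cko.

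In the pooled monocyte states the ratios ran from 0.455 to 0.516 over the 5 percentiles, and 6.85% of cko monocytes lay above the wt median of 233. Single states varied more, from 0.985 at the 10th percentile to 0.564 at the 90th in interferon-high and from 0.343 to 0.550 in nonclassical monocytes. For the monocyte states together the spread relative to the mean was alike, with coefficients of variation of 0.525 and 0.575. In the C1q states together the ratio was 0.476 at the 90th percentile, where monocytes had 0.513, and 0.227 at the 10th, where monocytes had 0.473.

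The C1q states differed in this among themselves, and the pooled ratio also holds their different mix, with Cd300e/Clec4b1/Pparg macrophages making up 143 of 749 C1q cells in wt and 281 of 945 in cko. In Cd300e/Clec4b1/Pparg macrophages the ratio was 0.121 at the 10th percentile, 0.176 at the 25th and 0.494 at the 90th. Their medians were 95.9 and 30.7 per 10000, the coefficient of variation was 0.783 in wt and 0.956 in cko, and 8 of the 281 cko cells but 0 of the 143 wt cells had no Lyz2 UMI. In Vcam1/Ccl8/Folr2 macrophages the medians were 141 and 70.5, with ratios of 0.348 at the 10th percentile and 0.491 at the 90th. In Ly6c2+ C1q cells the medians were 181 and 103, and the ratio fell from 0.890 at the 10th percentile to 0.579 at the 90th. Neutrophil-like cells had medians of 92.9 and 19.1, the lowest median ratio of the states with over 20 cells in each library (0.206).

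**Figure D3:**
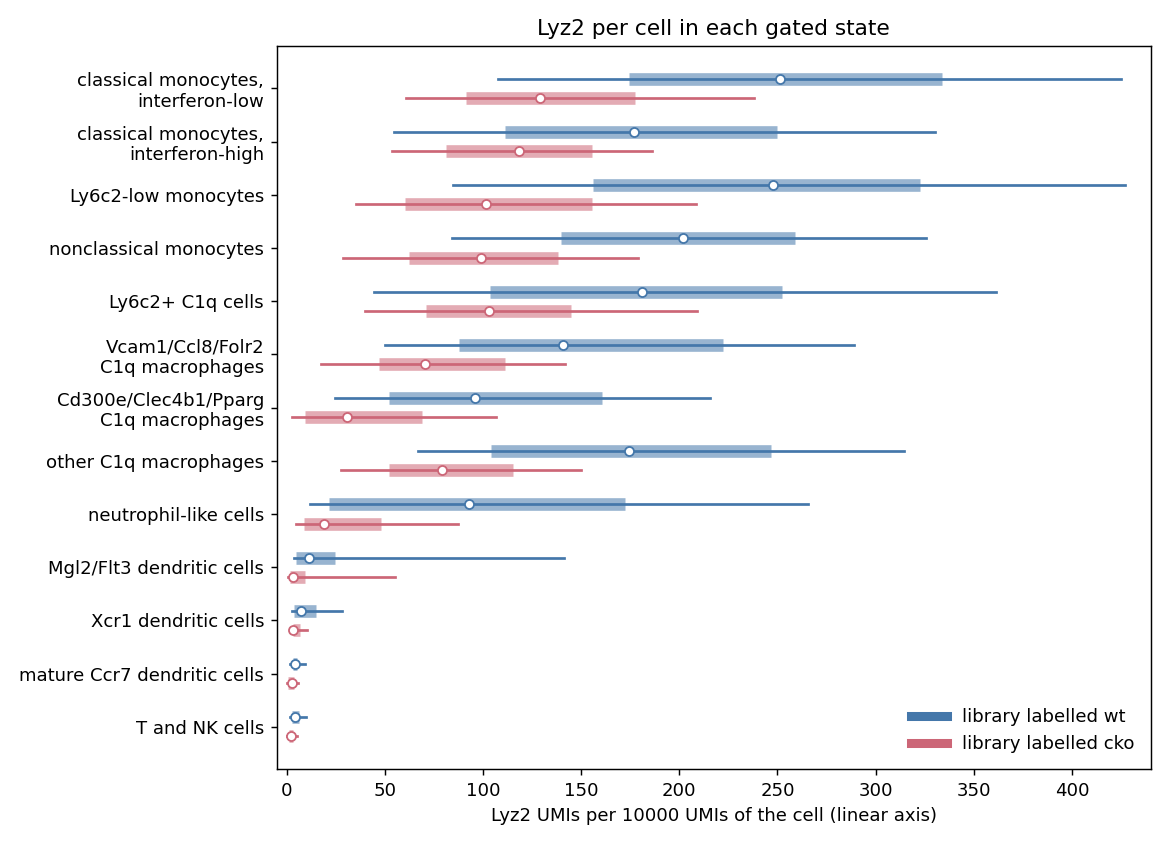
Lyz2 UMIs per 10000 UMIs of each cell, by gated state and library. Circles are medians, thick bars run from the 25th to the 75th percentile and thin lines from the 10th to the 90th. The cko bars lie to the left of the wt bars from monocytes (medians of 251 and 129 in interferon-low classical monocytes) to neutrophil-like cells (92.9 and 19.1), and T and NK cells lie near 0 in both libraries.

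T and NK cells carried Lyz2 UMIs too, which free RNA in the droplets can give. Their medians were 4.14 per 10000 in wt and 2.13 in cko, with 94.4% and 84.1% of cells holding a Lyz2 UMI at median depths of 6128 and 6786 UMIs. The 2 libraries therefore differed at the level of this background in the same direction as in the myeloid cells. Summed over T and NK cells Lyz2 was at 1098 CPM in wt and 542 CPM in cko, and the highest of these cells had 290 and 168 per 10000. The summed level of Xcr1 dendritic cells was 1.13 times that of T and NK cells in wt and 1.07 times in cko, and that of mature Ccr7 dendritic cells was 0.401 and 1.19 times. These sums include the few high T and NK cells, and by medians Xcr1 dendritic cells (7.32 and 3.50 per 10000) lay above T and NK cells, whereas mature Ccr7 dendritic cells had 4.17 and 2.72. Low Lyz2 in these states was not separated from background. Mgl2/Flt3 dendritic cells were at 5.49 and 3.28 times that level, with medians of 11.3 and 3.32 per 10000, and the monocyte and C1q states were at 8.86 times or more.

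Lyz1 was a rare transcript in wt, with at most 18 UMIs in a cell. It was at 47.1 CPM in interferon-low classical monocytes, 26.9 CPM in interferon-high ones, 47.6 CPM in Ly6c2-low monocytes and 45.3 CPM in nonclassical monocytes. In the C1q states it was at 30.2 CPM in Ly6c2+ cells, 49.1 CPM with Vcam1, Ccl8 or Folr2, 22.1 CPM with Cd300e, Clec4b1 or Pparg, and 46.4 CPM in the others. The counting intervals of the 5 states from 45.3 to 49.1 CPM overlapped, and so did those of the 3 from 22.1 to 30.2 CPM. The interval of the highest, Vcam1/Ccl8/Folr2 macrophages, was 41.3 to 57.9 CPM and that of the lowest, Cd300e/Clec4b1/Pparg macrophages, 16.4 to 29.1 CPM. T and NK cells held 1 Lyz1 UMI in 198 cells.

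In cko Lyz1 was higher in all 8 monocyte and C1q states. In monocytes the values were 97.8 CPM in the interferon-low state (log2 ratio 1.06, interval 0.78 to 1.34), where 1.39% of genes were higher by 1.5-fold or more, and 171 CPM in the interferon-high state (2.67, interval 1.95 to 3.47, 1.75% of genes higher). They were 217 CPM in Ly6c2-low monocytes (2.19, interval 1.95 to 2.43, 1.61% of genes higher) and 148 CPM in nonclassical monocytes (1.71, interval 1.34 to 2.09, 1.81% of genes higher). The interferon-high value rested on 1 cell with 85 of its 93 UMIs, and without the top cells the ratio was −0.70 (interval −2.12 to 0.59).

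Among the C1q states, Ly6c2+ C1q cells had 373 CPM (3.63, interval 3.22 to 4.06, 1.98% of genes higher), the highest of any state, and the other C1q macrophages had 272 CPM (2.56, interval 2.30 to 2.82, 1.96% of genes higher). Vcam1/Ccl8/Folr2 macrophages had 212 CPM (2.11, interval 1.85 to 2.38, 2.43% of genes higher). Cd300e/Clec4b1/Pparg macrophages, which had the least Lyz1 in wt, had 206 CPM (3.23, interval 2.81 to 3.67, 3.99% of genes higher). In 5 of the 8 states Lyz1 had the highest ratio of all tested genes. These include the interferon-high monocytes, where 1 cko cell held 85 of the 93 UMIs. Neutrophil-like cells, with 8 and 13 UMIs, had a ratio of −0.08 (interval −1.46 to 1.40), which holds ratios of the size seen in interferon-low monocytes. With cells of mixed lineage kept in, the value there was 2.12. Such cells are over the limits of more than 1 lineage, and 2 of the 27 in cko held 92 of their 102 Lyz1 UMIs. How far those 2 cells set the value was not tested. Mgl2/Flt3 dendritic cells had 21 and 41 Lyz1 UMIs, of which 1 cell held 18 in wt and 1 cell held 35 in cko.

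The higher Lyz1 of cko came from a small number of cells. Of the gated myeloid cells, 1460 of wt and 1673 of cko had no Lyz1 UMI, 436 and 373 had 1, 105 and 82 had 2, and 40 and 27 had 3 or 4. Above that the libraries parted. Only 2 wt cells reached 10 Lyz1 UMIs, with 11 and 18, whereas 84 cko cells did, and 70 of them had 20 or more. Cells with at least 10 Lyz1 UMIs are called Lyz1-high. This limit was set after the counts were seen, and it marks a range of values rather than a cell type. In cko the last cells below it had 8, 8 and 8 UMIs and the first above it 12, 12 and 12. In wt the cells just below had 8, 9 and 9.

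**Figure D4:**
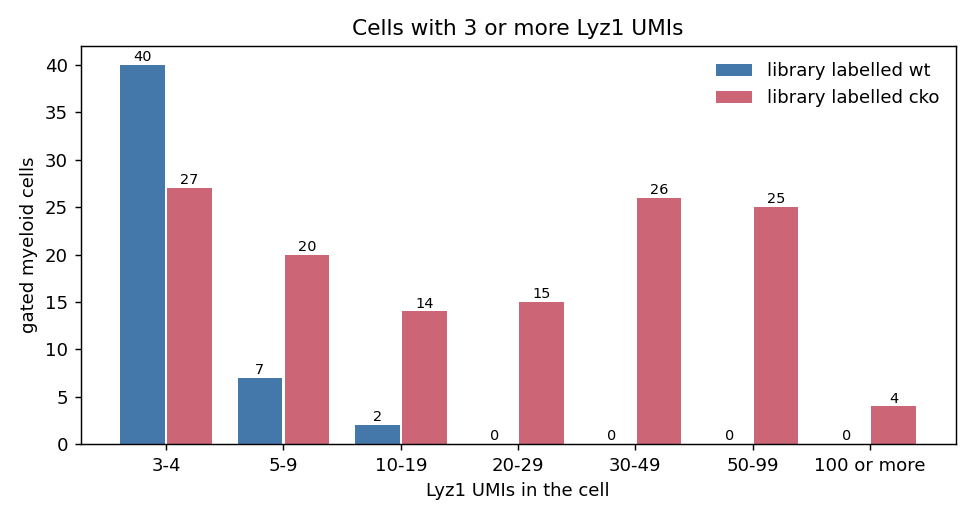
Number of gated myeloid cells with 3 or more Lyz1 UMIs, by the number of UMIs in the cell and by library, on a linear axis from 0. The wt cells end in the class from 10 to 19 (2 cells), whereas cko has cells in every class, 4 of them with 100 or more. The classes differ in width, so bar heights do not compare the density of cells between classes.

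The Lyz1-high cells of cko were 3.72% of gated myeloid cells (exact interval 2.98 to 4.58%) and held 83.0% of their Lyz1 UMIs. In wt they were 0.0976% (0.0118 to 0.352%). Each Lyz1-high cell of cko had a median of 35 Lyz1 UMIs, up to 141, or 33.9 per 10000 UMIs. Leaving out Lyz1-high cells removes the highest Lyz1 values by construction, 29 of 853 UMIs in wt and 3691 of 4446 in cko. Without Lyz1-high cells, Lyz1 was at 39.9 CPM in wt and 35.7 CPM in cko, a log2 ratio of −0.16 (interval −0.31 to −0.02), and the direction was reversed. That ratio was −0.33 (interval −0.54 to −0.12) in the monocyte states and −0.02 (interval −0.23 to 0.18) in the C1q states. Of the 8 single states, 2 still had ratios above 0, Cd300e/Clec4b1/Pparg macrophages (22.1 and 31.2 CPM, 0.50, interval 0.01 to 1.01, from 3.23) and Ly6c2+ C1q cells (30.2 and 40.8 CPM, 0.43, interval −0.16 to 1.02, from 3.63). Lyz2 kept its ratio of −1.08 without them.

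Lyz1-high cells were found in all 8 monocyte and C1q states of cko. They made up 9 of 113 Ly6c2+ C1q cells (7.96%, interval 3.71 to 14.6%), 12 of 163 Vcam1/Ccl8/Folr2 macrophages (7.36%, 3.86 to 12.5%), 18 of 281 Cd300e/Clec4b1/Pparg macrophages (6.41%, 3.84 to 9.94%) and 20 of 388 other C1q macrophages (5.15%, 3.18 to 7.85%). The intervals of the 4 C1q states overlapped. Monocytes had fewer, with 6 of 380 interferon-low, 1 of 58 interferon-high, 13 of 493 Ly6c2-low and 4 of 222 nonclassical cells. Together they made up 6.24% of C1q cells (4.79 to 7.98%) and 2.08% of monocytes (1.34 to 3.08%), and these intervals did not overlap. A limit in UMIs favors deeper cells, and the C1q cells of cko had a median depth of 10833 UMIs against 7281 in monocytes. Among Mgl2/Flt3 dendritic cells, 1 of 45 in wt and 1 of 50 in cko were Lyz1-high. No neutrophil-like cell (0 of 73, which allows up to 4.11%), T or NK cell (0 of 226, which allows up to 1.33%) was Lyz1-high. In wt, 0 of 1188 monocytes were Lyz1-high, which allows up to 0.253%. These limits for a count of 0 are 3 cells of the total and are tighter than the exact intervals, whose upper bounds are 4.93%, 1.62% and 0.310%.

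**Figure D5:**
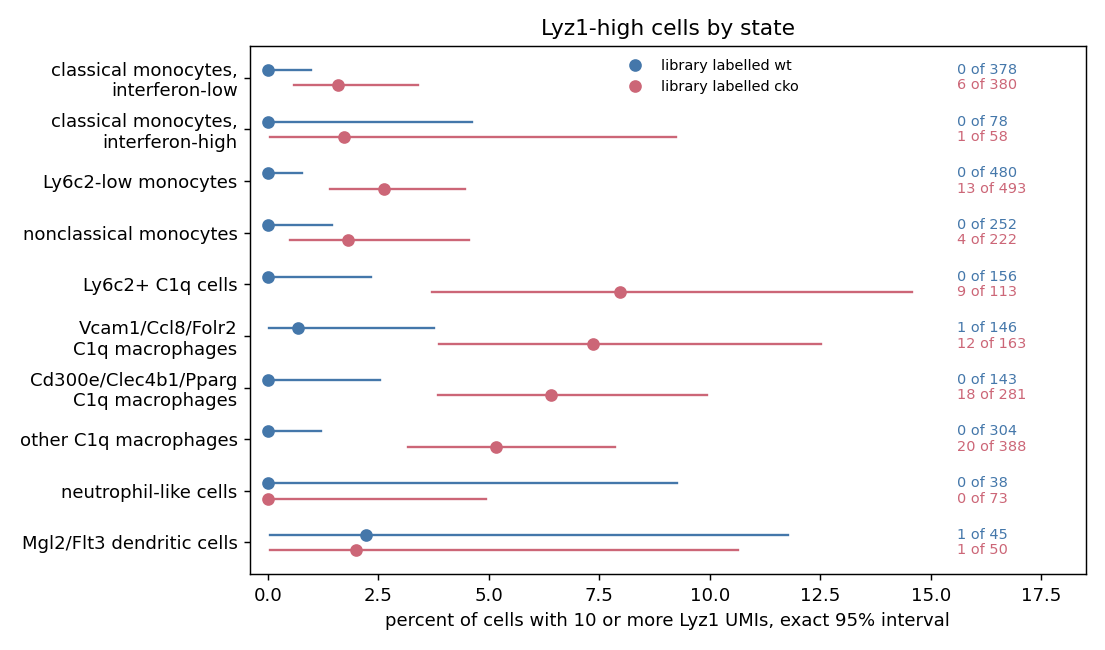
Percent of cells with 10 or more Lyz1 UMIs in each state and library, with exact 95% intervals and the cell counts at the right. The cko points of the 4 C1q states lie between 5.15% and 7.96%, those of the 4 monocyte states between 1.58% and 2.64%, and wt has 1 such cell among its monocyte and C1q states.

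Lyz2 was not low where Lyz1 was high. Lyz1-high cells of cko had a median of 97.6 Lyz2 UMIs per 10000, from 20.5 to 315, against 85.6 in the other cko cells. Set against the other cko cells of the same states, Lyz2 in Lyz1-high cells was at 9781 CPM where 8063 CPM would match the rest (log2 ratio 0.28, interval 0.25 to 0.31), and it was higher in 5 of 8 states. By medians per 10000, it was lower only in interferon-high monocytes (53.9 in 1 cell against 119) and in other C1q macrophages (78.8 against 79.0). In these cells Lyz1 made up 25.1% of the lysozyme UMIs, and 5 of the 84 had more Lyz1 than Lyz2.

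Lyz1-high cells were deeper than the rest. In the 8 states of cko, the 83 Lyz1-high cells had a median of 10180 UMIs (quartiles 8142 and 16993) and 1.71% mitochondrial UMIs, against 8320 UMIs (6519 and 11372) and 1.92% in the 2015 others. None had a barcode that occurs in both libraries, and 20 of the 83 were in the deepest 10% of the library. With every cell thinned to 3000 UMIs, 3.01% of cko cells and 0% of wt cells (0 of 2050) still had 5 or more Lyz1 UMIs. The count of 0 allows up to 0.146% as 3 cells of the total and up to 0.180% by the exact interval. The doublet filter had removed 3 further Lyz1-high cells of cko.

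Few other genes went with high Lyz1. Against other cko cells of the same states, 0.804% of the 2984 genes tested were higher by 1.5-fold or more in Lyz1-high cells and 0.771% were lower. The genes named next were ranked after their values were seen. The highest were Mgl2, a lectin of dendritic cells and some macrophages (70.5 against 25.2 CPM, log2 ratio 1.49, interval 1.15 to 1.80), Npl, an enzyme of sialic acid breakdown (63.4 against 27.9 CPM, 1.18), and Rrm2, a ribonucleotide reductase of dividing cells (88.3 against 39.0 CPM, 1.18). Mgl2 was higher in only 2 of the 8 states, Rrm2 in 3 and Npl in 4, so these values came from some states. Pltp, a phospholipid transfer protein, was higher in 6 of 8 states (280 against 152 CPM, 0.89), and Apoe, a lipid carrier of macrophages, was also higher in 6 of 8 (7026 against 4228 CPM, 0.73).
The lowest were Spp1, the secreted protein osteopontin (34.8 against 226 CPM, −2.70, interval −3.19 to −2.25), and Slpi, a leukocyte protease inhibitor (27.7 against 92.1 CPM, −1.74, interval −2.29 to −1.23), and both were higher in 0 of 8 states. That count is weak, because Spp1 had 39 UMIs and Slpi 31 in all these cells. Single states held from 1 to 20 Lyz1-high cells. Mgl2 is also a marker of the dendritic cell gate. Among markers of other lineages, Cd3e had 0 UMIs in the Lyz1-high cells, where 2.18 would match the rest, Krt18 had 3 where 3.78 would match, and S100a8 was at 195 against 257 CPM (−0.40). C1qa, C1qb and C1qc were at log2 ratios of 0.17, 0.15 and 0.17. Cd3e, Krt18, S100a8 and the C1q genes were themselves gate markers. The gates limited their values in both groups of cells, so these values are no independent check for mixed cells.

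The lower Lyz2 and the higher Lyz1 of cko both enter the share of Lyz1 among all lysozyme UMIs. In gated myeloid cells this share was 0.215% (exact interval 0.201 to 0.230%) in wt and 2.16% (2.10 to 2.22%) in cko, or 464 and 45.3 Lyz2 UMIs for each Lyz1 UMI. In wt the share kept to a narrow range, from 0.141% in interferon-high classical monocytes to 0.299% in Vcam1/Ccl8/Folr2 macrophages among the 8 monocyte and C1q states. In cko it ran from 0.701% in interferon-low classical monocytes to 4.12% in Cd300e/Clec4b1/Pparg macrophages. Without Lyz1-high cells it was 0.209% in wt and 0.395% in cko. In cko it then ran from 0.123% in interferon-high classical monocytes to 0.668% in Cd300e/Clec4b1/Pparg macrophages.
In T and NK cells the share was 0.0559% (0.00142 to 0.311%) in wt and 1.27% (0.678 to 2.16%) in cko, from 1 and 13 Lyz1 UMIs. The interval of the cko value overlapped that of its myeloid cells as a whole and lay above that of the myeloid cells that were not Lyz1-high (0.367 to 0.424%).

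Lyz2 was detected in nearly every cell, so co-detection of the genes follows the detection of Lyz1 and is no measure of a relation between them. With each cell thinned to 3000 UMIs, 99.2% of wt and 96.7% of cko myeloid cells had a Lyz2 UMI, and 12.6% of wt cells (11.2 to 14.1%) and 12.4% of cko cells (11.02 to 13.8%) held UMIs of both genes, and these intervals overlapped. At 1000 UMIs they did not, with 3.41% (2.67 to 4.29%) in wt and 6.42% (5.44 to 7.51%) in cko. Cells with Lyz1 alone were 0 of 2050 in wt, which allows up to 0.146% (3 cells of the total, where the exact upper bound is 0.180%), and 0.0443% in cko. Cells with neither were 0.780% in wt and 3.28% in cko. In T and NK cells 0.505% and 1.33% held both. Without thinning, 28.8% and 25.9% of myeloid cells and 0.505% and 4.87% of T and NK cells held both.
In the C1q states co-detection was 10.9% (8.80 to 13.4%) in wt and 14.9% (12.7 to 17.4%) in cko, and in the monocyte states it was 14.3% (12.4 to 16.4%) and 11.1% (9.35 to 13.1%). The intervals of the libraries overlapped in both groups at this depth. Among the 12 states they did not overlap in Ly6c2+ C1q cells, with 7.69% (4.04 to 13.1%) in wt and 21.2% (14.1 to 29.9%) in cko, and they overlapped in the other 11. In the other monocyte and C1q states the shares ran from 7.69% in Cd300e/Clec4b1/Pparg macrophages to 16.9% in Ly6c2-low monocytes of wt, and from 6.90% in interferon-high monocytes to 15.7% in other C1q macrophages of cko. At 1000 UMIs co-detection was 3.60% (2.39 to 5.20%) and 8.99% (7.25 to 11.002%) in the C1q states, where the intervals did not overlap, and 3.54% (2.56 to 4.75%) and 5.03% (3.84 to 6.45%) in the monocyte states, where they did. Across single cells of a state, thinned Lyz1 and Lyz2 had Spearman correlations from 0.0860 to 0.332 in wt and from −0.0284 to 0.266 in cko over the 8 monocyte and C1q states, which is a weak relation in sparse counts.

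Other members of the lysozyme family were absent or nearly so. Of 9 family genes, 5 had no UMI in gated myeloid cells (Lyzl1, Lyzl6, Spaca3, Lyg1 and Lyg2). Lyzl4 had 5 and 4 UMIs, and Lalba, the milk protein alpha-lactalbumin, had 0 and 1.

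Several antimicrobial genes of myeloid cells were higher in cko. Of 26 tested, 0 were lower by 1.5-fold or more, where 0.548% of all genes were, and 12 were higher, where 2.17% of all genes were, with a median log2 ratio of 0.43 against 0.03 for all genes. The 12 were granule and neutrophil genes for the most part. They included S100a8 and S100a9, the calprotectin subunits (1032 and 2164 CPM, log2 ratio 1.07, and 557 and 1219 CPM, 1.13), Ngp, a granule protein (2.37 and 40.9 CPM, 4.11), and Chil3, a chitinase-like protein of monocytes (801 and 1526 CPM, 0.93). The others were Camp, Ltf, Lcn2, Mpo, Elane, Ctsg, Wfdc21 and Slpi. Neutrophil-like cells numbered 38 in wt and 73 in cko. Without them, 22 genes were tested, 5 were higher (Lcn2, Mpo, Elane, Ctsg and Chil3), where 1.96% of all genes were, and 0 were lower, where 0.581% were. The median was then 0.12 against 0.04 for all genes. S100a8 was then at a log2 ratio of 0.24, and Chil3 stayed at 0.93.

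Of 9 tested transcription factors that act on myeloid and lysozyme genes, 0 were past 1.5-fold in either direction. With 0.548% of all genes lower and 2.17% higher, that count is near the background. The factors' levels are given as values, and their median log2 ratio was 0.15. Spi1, which encodes PU.1, was at 688 and 727 CPM (0.08, interval 0.05 to 0.11), and Cebpa was at 37.6 and 41.7 CPM (0.15, interval 0.01 to 0.29). Cebpb was at 572 and 745 CPM (0.38, interval 0.35 to 0.42). Klf4, a factor of monocyte differentiation, came closest to the limit (24.95 and 36.9 CPM, 0.56, interval 0.40 to 0.72).

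Of 15 neighbours of the pair on chromosome 10, 10 were tested, 0 were lower, 1 was higher, and the median was 0.12. Against 0.548% of all genes lower and 2.17% higher, these counts are too small to set the neighbours apart from other genes. The nearest in that list were Cpsf6, which processes the ends of mRNAs and lies 51.8 kb away (47.3 and 49.9 CPM, log2 ratio 0.08, interval −0.05 to 0.20), and Yeats4, a chromatin reader at 53.0 kb (58.5 and 65.2 CPM, 0.15, interval 0.04 to 0.27). Mdm1, at 849 kb, was the gene past 1.5-fold (83 and 136 UMIs, 0.61, interval 0.20 to 1.02).

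Over the 12 states, the levels of Lyz1 and Lyz2 followed each other, with a Pearson correlation of log2(CPM + 10) of 0.896 in wt and 0.828 in cko. These points share libraries and depth, and the dendritic cell states are low for both. Among 2510 genes, those most like Lyz2 in wt were Eno1, a glycolytic enzyme (0.987), Capg, an actin capping protein (0.985), Atp6ap1, a subunit of the lysosomal proton pump (0.983), Pira2, a paired immunoglobulin-like receptor (0.982), and Igsf6 (0.981). In cko these were at 0.937, 0.940, 0.858, 0.891 and 0.928. Those most like Lyz1 in wt were Ube2d2a (0.938), Rtn3 (0.935), Lpcat2 (0.934), Vapa (0.929) and Ccdc115 (0.925). In cko Ube2d2a was at −0.0737 and Rtn3 at 0.422, whereas Lpcat2, Vapa and Ccdc115 were at 0.703, 0.865 and 0.913.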

How the data were processed

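Droplet libraries of CD45+ cells from LLC tumors were made with 10x Genomics 3′ chemistry. The deposited files hold raw UMI counts per gene and cell, for droplets the authors had already called as cells. The submitters' processing notes name Cell Ranger, Seurat and mm10, and their versions are not given in the sources used here. The shallowest deposited cells had 3184 and 3187 UMIs, so droplets with less RNA are not in the counts.

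A cell was kept if it had 200 detected genes or more and no more than 10% mitochondrial UMIs. Scrublet (scanpy 1.11.5) marked 2 and 5 cells as doublets by its automatic threshold, under the share at which it can be trusted, so the 48 and 59 highest scores were removed, at 0.8% per 1000 cells. Cells were gated by summed marker UMIs, and 18 and 27 cells over the limits of more than 1 lineage and 104 and 100 cells in no gate were left out. Gate limits were set after the marker counts were seen, without Lyz1 or Lyz2. Some gates take few UMIs, as for T cells (at least 4 of Cd3d, Cd3e and Cd3g) and C1q cells (at least 15 of C1qa, C1qb and C1qc).

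UMIs were summed over the cells of a state and expressed as CPM. The 3′ counts were not divided by gene length. Log2 ratios of CPM have exact conditional binomial 95% intervals, levels exact Poisson intervals and shares exact Clopper-Pearson intervals. The limit given for a count of 0 is 3 counts of the total. PCR duplicates are removed by UMIs, and all intervals cover counting error only. They leave out how mice, pools and cells vary. No replicate exists, so no test was run and no p-value is given. Genes that reached 100 UMIs in wt and cko combined were compared, and a gene was called lower or higher past 1.5-fold. The script for ratios and intervals was tested on simulated data. Genes named in the text are Lyz1 and Lyz2 in every state, genes of the lists past 1.5-fold in gated myeloid cells, and for each member the 5 genes with the highest Pearson correlation over states in wt with at least 100 CPM in a state. Other genes were chosen after their values were seen. The members and lists were chosen with earlier results of these data known. Sequences came from RefSeq promoter windows (GRCm38.p6) and GENCODE M21 transcripts, and both genes matched by symbol. They were aligned with Biopython 1.88. Other tools were Python 3.11.15, numpy 2.4.6, scipy 1.17.1, pandas 2.3.3 and matplotlib 3.10.9. Alternatives covered scaling, averaging over cells, gate limits, doublets, depth, shared barcodes and mixed cells.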

Additional observations from a re-analysis of the deposited data

Results flagged for a closer look

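Lyz2 in mature Ccr7 dendritic cells had a log2 ratio of 0.5544 (interval 0.07 to 1.06), opposite in sign to the other 11 states, whose intervals all lay below 0, although that of Xcr1 dendritic cells turned to 0.51 with high doublet scores kept. The difference between states was not tested. The value rested on 46 UMIs in 14 wt cells and 153 UMIs in 31 cko cells, and 1 cko cell held 98 of the latter.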

How the results depend on the processing

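Median-of-ratios scaling gave log2 ratios of −1.11 for Lyz2 and 2.24 for Lyz1 in all gated myeloid cells. Lyz2 was −1.07 with doubled gate limits, −1.09 without the deepest 10% of cells, −1.11 as a mean over cells, −1.10 with cells thinned to 3000 UMIs and −1.01 with the same mix of states. Thinning gave 2.03 for Lyz1. In single states, further values moved by over 1.5-fold. With doubled gate limits, Lyz1 was 3.93 in interferon-high monocytes, 2.87 in Ly6c2+ C1q cells and 1.83 in Mgl2/Flt3 dendritic cells, where Lyz2 was −2.54. Without the deepest 10% of cells, Lyz1 was 2.89 in Vcam1/Ccl8/Folr2 macrophages and 3.56 in Mgl2/Flt3 dendritic cells, and in the latter it was 2.54 as a mean over cells and 4.02 thinned. In Xcr1 dendritic cells, with 5 and 1 Lyz1 UMIs, it was −0.31 with high doublet scores kept and 0.19 thinned. Without Lyz1-high cells, it was 0.43 in Ly6c2+ C1q cells and 0.50 in Cd300e/Clec4b1/Pparg macrophages. Lyz1 was reversed without Lyz1-high cells (−0.16 in all gated myeloid cells, −0.38 and −0.84 in interferon-low and interferon-high classical monocytes, −0.26 in Ly6c2-low and −0.37 in nonclassical monocytes, −0.49 in Vcam1/Ccl8/Folr2 and −0.017 in other C1q macrophages), an alternative that by construction leaves out its highest values. Lyz2 was reversed in Xcr1 dendritic cells with high doublet scores kept (0.51) and in mature Ccr7 dendritic cells with doubled gate limits (−0.80). Lyz1 in neutrophil-like cells was 2.12 with cells of mixed lineage kept, and the cause was not tested.

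The Lyz1 share of lysozyme UMIs was 0.198% in wt and 1.99% in cko without the deepest 10%, 1.66% in cko as a mean over cells with at least 10 lysozyme UMIs, and 0.395% without Lyz1-high cells. Co-detection was 3.41% in wt and 6.42% in cko at 1000 UMIs, where the intervals no longer overlapped, and 28.8% and 25.9% unthinned. The number of genes lower by 1.5-fold was 53, and it was 116 with at least 50 UMIs and 883 with 1 UMI in each library. Cells with at least 5 Lyz1 UMIs were 0.439% of wt and 4.60% of cko, those with at least 20 were 0% of wt, and thinned cells with at least 5 were 0% of wt. The alternatives on Lyz1-high cells, neutrophil-like cells, the mix of states and single cells were chosen after seeing the data. In single states, 109 of 119 alternative values of Lyz2 were below 0 and 88 of 107 of Lyz1 were above 0. No paired analysis was possible because each group is 1 library. Lyz1 counts limit its ratio in neutrophil-like and dendritic cells (41 UMIs or fewer per state and library) and in interferon-high monocytes of wt (19 UMIs).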
